A study of Mus musculus with 34 samples.

Results

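The genes described here are 10 genes of antigen presentation on MHC class II molecules in mouse spleen dendritic cells (DCs): the regulators Ciita and Rfx5, the chain genes H2-Aa, H2-Ab1, H2-Eb1 and H2-Eb2, the peptide editing genes H2-DMa, H2-Oa and H2-Ob, and the protease gene Ctss. Their probe sets were those whose annotation names one of these symbols, which gave 12 of the 41155 probe sets in the deposited table; the annotation names 23981 genes in all. Rfx5 and H2-Oa have 2 probe sets each and the other members 1. One Rfx5 probe set (17407643) is shared with B230398E01Rik and one H2-Oa probe set (17343762) with BC051537, so their signal cannot be assigned to a member alone. The other Rfx5 (17400177) and H2-Oa (17336396) probe sets name the member only. Unless the text says otherwise, Rfx5 and H2-Oa values are from the probe set with the higher mean, which is the shared one for Rfx5 and the one of its own for H2-Oa.

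Gene expression was measured on 34 arrays of DCs sorted by FACS from the spleens of C57BL/6 mice. Wild-type (WT) and Mst1/2-/- (Mst1/2-KO) mice gave CD8+ and CD8- DCs, with 4 arrays in each of the 4 groups, and total DCs, with 4 WT and 3 Mst1/2-KO arrays. Mst1 and Mst2 are the Hippo pathway kinases encoded by Stk4 and Stk3. In experiment 1, DCs labelled as stimulated with anti-CD40, an antibody against a receptor through which T cells activate DCs, came from 4 Rag1-/- and 3 Rag1-/-/p38-/- arrays, so both groups carry the Rag1 deletion, which removes mature T and B cells. Experiment 2 had 2 Rag1-/- and 1 WT array with anti-CD40 and 1 non-stimulated Rag1-/- array. The labels name neither a promoter or cell type for the deletions, nor ages, nor whether arrays are from separate animals, so the p-values measure the spread between arrays, which may be technical. CD8+ DCs are known for presenting antigen to CD8 T cells and CD8- DCs for presenting it on class II to CD4 T cells.

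Class II molecules are pairs of an alpha and a beta chain that show peptides from endosomes to CD4 T cells. Ciita, the class II transactivator, does not bind DNA itself and is held at the promoters by factors on conserved boxes: the RFX complex, of which Rfx5 is a subunit, on the X1 box, CREB family factors on the X2 box and NF-Y on the Y box. The chains first carry the invariant chain, cathepsin S (encoded by Ctss) trims it, H2-M (with the alpha chain gene H2-DMa) exchanges the remaining fragment for peptide, and H2-O (H2-Oa and H2-Ob) inhibits H2-M.

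Promoter letters were available for 8 of the 10 members, as 9 RefSeq entries of the build GRCm38.p6, and none for Ciita and H2-Ab1. The 5 shown are those that hold an X1 core (GCAAC) 20 to 40 bases before a Y core (ATTGG) on one strand. They were chosen because they set members called lower in sorted cells lacking Mst1/2 beside the chain genes H2-Aa and H2-Eb1, which were not. H2-Eb2 and H2-Oa were called lower in both CD8+ and CD8- DCs, and H2-Ob in CD8- DCs only. Of these genes only H2-Eb2 was called in total DCs. Each sequence shown is the 150 bases before the start site, 5′ to 3′ on the gene's strand. Matches to the 2 cores and to the X2 box (TGACGTCA), on either strand, are in capitals. H2-Aa is chr17:34287824-34287973 on the minus strand. On the plus strand are H2-Eb1 (chr17:34305717-34305866), H2-Eb2 (chr17:34325525-34325674), H2-Oa (chr17:34092229-34092378) and H2-Ob (chr17:34238755-34238904).
H2-Aa: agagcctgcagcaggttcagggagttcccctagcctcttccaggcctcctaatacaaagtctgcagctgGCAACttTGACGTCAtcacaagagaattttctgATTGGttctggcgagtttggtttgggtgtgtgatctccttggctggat
H2-Eb1: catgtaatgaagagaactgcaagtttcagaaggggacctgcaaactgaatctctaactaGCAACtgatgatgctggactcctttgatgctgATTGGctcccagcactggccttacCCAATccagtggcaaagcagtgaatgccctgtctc
H2-Eb2: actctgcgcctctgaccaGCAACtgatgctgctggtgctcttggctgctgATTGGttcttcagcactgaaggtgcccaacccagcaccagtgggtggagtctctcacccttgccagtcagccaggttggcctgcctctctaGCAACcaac
H2-Oa: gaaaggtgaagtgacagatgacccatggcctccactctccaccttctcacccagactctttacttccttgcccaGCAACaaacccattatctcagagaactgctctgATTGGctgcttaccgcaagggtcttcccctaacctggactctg
H2-Ob: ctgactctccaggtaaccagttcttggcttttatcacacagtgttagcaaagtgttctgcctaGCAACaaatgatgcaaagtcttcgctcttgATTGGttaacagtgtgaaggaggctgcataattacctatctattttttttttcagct

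The spacing of the pair was alike in the 5 promoters, while its distance from the start site was not. From the first base of the X1 core to the first base of the Y core there were 33 bases in H2-Aa and H2-Oa, 32 in H2-Eb1 and H2-Eb2 and 30 in H2-Ob. The Y core began 100 bases before the start of H2-Eb2, against 43 in H2-Oa, 48 in H2-Aa, 57 in H2-Ob and 59 in H2-Eb1. Over the 250 bases before the start, the ordered pair was found in 0.874% of 32851 promoters, in 287 of them, whereas GCAAC alone was in 29.9%, ATTGG alone in 33.8% and TGACGTCA in 1.55%. The 8-letter X2 box was in the H2-Aa promoter and in no other of the 9 entries. The Rfx5, Ctss and both H2-DMa entries held no such pair in the window searched. Rfx5 was nevertheless called lower, through its shared probe set, in both sorted subsets lacking Mst1/2. The pair and its spacing were set after the letters had been seen, and a match describes letters, not binding.

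**Figure D1:**
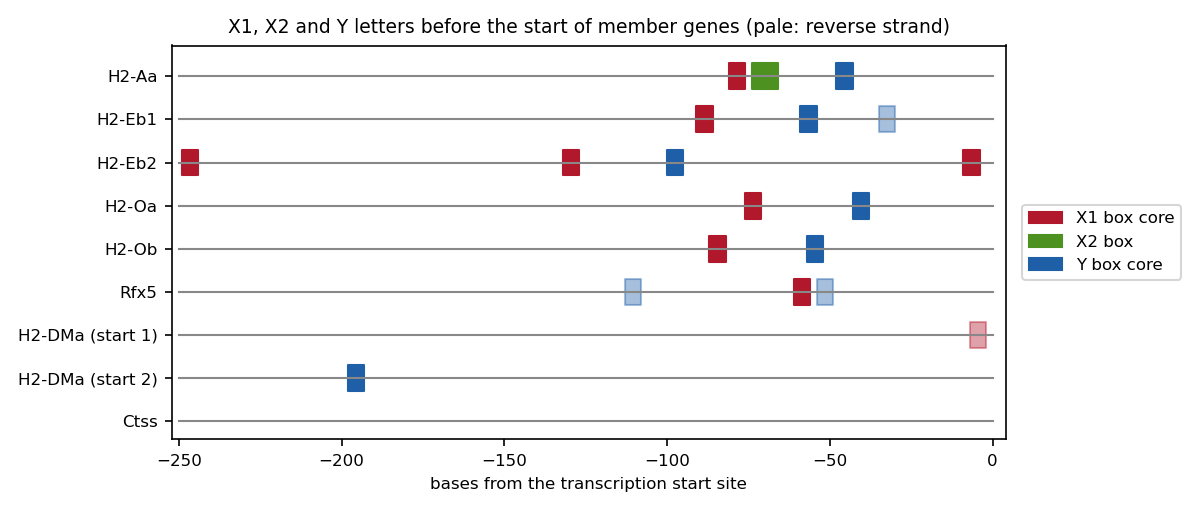
Matches to the X1 core, the X2 box and the Y core before the annotated start sites of the members with a RefSeq promoter entry (x axis, bases from the start site; 1 row per entry, H2-DMa having 2; pale marks, reverse strand). In H2-Aa, H2-Eb1, H2-Eb2, H2-Oa and H2-Ob an X1 core lies 30 to 33 bases before a Y core, and the pair is farthest from the start in H2-Eb2, at -132 and -100.

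The labels were checked first. Stk4 fell in Mst1/2-KO DCs, by 0.86 ± 0.10 (SE) on the log2 scale in CD8+ cells, by 0.77 ± 0.10 in CD8- cells and by 1.09 ± 0.09 in total DCs (limma adjusted p = 0.000214, 0.000256 and 0.00202). Stk3 is named by no probe set of the annotation table. Mapk14, which encodes p38 alpha, had a log2 difference of 0.23 ± 0.14 between the arrays labelled Rag1-/-/p38-/- and Rag1-/- (adjusted p = 0.656), and whether its probes lie in the deleted part is not known, so this gene does not check that label. The Rag1 probe set is shared with Iftap. The array medians were 4.11 to 4.20 log2 units, and the number of arrays limits the precision. The mean of 5 DC markers was lower on Mst1/2-KO than on WT arrays without overlap. It was 9.04 to 9.24 against 9.55 to 9.74 in CD8+, 9.14 to 9.43 against 9.69 to 9.87 in CD8- and 9.34 to 9.42 against 9.58 to 9.75 in total DCs. Ccr7, 1 of the 5, differed by -2.34, -1.86 and -1.53 in these comparisons. The mean was 9.35 to 9.60 in experiment 1 and 9.33 to 9.76 in experiment 2. The mean of 10 CD8+ DC markers was 10.70 to 10.87 in WT CD8+ arrays against 7.16 to 7.74 in WT CD8- arrays. Values are log2 signals that can be compared within an experiment only. The labels name experiments 1 and 2 only, and the sorted subsets and the total DCs were each handled here as an experiment of their own.

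Wild-type CD8+ DCs had much less H2-Eb2 signal than CD8- DCs and somewhat less Rfx5 (shared probe set) and Ctss. H2-DMa was slightly higher, but its call did not hold with the replicate numbers as a block. The signals of H2-Aa, H2-Ab1 and H2-Eb1, which encode the chains of the classical I-A and I-E molecules, did not pass the test. Of the 10 members, 3 were lower and 1 higher at an adjusted p under 0.05 in the fit without that block. There 20.5% of the 25335 probe sets tested were called and 9.66% were lower in CD8+ cells. With the block H2-DMa was not called, while Ciita was called higher and H2-Oa lower. The members' median difference was -0.05 against 0.02 over all probe sets. Since these are bulk samples, fewer cells of a type and less RNA per cell cannot be told apart in any of these comparisons.

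H2-Eb2, a beta chain gene next to H2-Eb1 whose role in presentation is not established, was 7.50, 7.41, 7.56 and 7.63 log2 units on the WT CD8+ arrays. On the WT CD8- arrays it was 10.15, 10.40, 10.53 and 10.39. The groups lay far apart, with no CD8+ array within 2 log2 units of a CD8- array. The log2 difference was -2.84 ± 0.18 (SE, n = 4 and 4), 7.17-fold, with a limma adjusted p of 2.77e-09. In Mst1/2-KO cells the same comparison gave -2.74 ± 0.18, 6.68-fold (adjusted p = 5.07e-09).

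**Figure D2:**
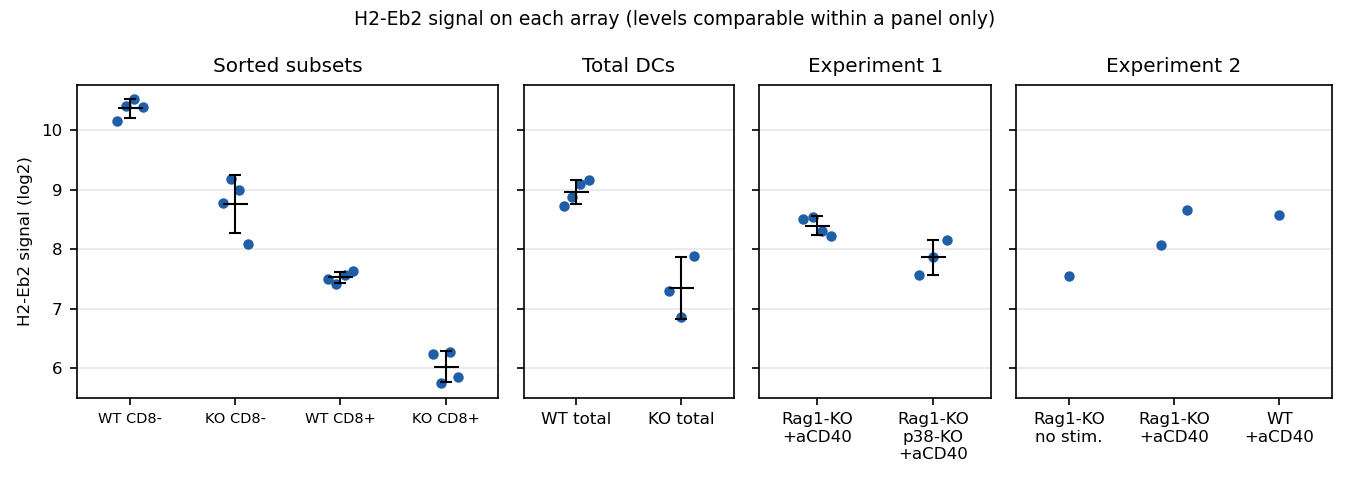
H2-Eb2 log2 signal on each array (points), with the mean and SD (black) for groups of 3 or 4 arrays, in 4 panels for the sorted subsets, total DCs, experiment 1 and experiment 2; levels are comparable within a panel only, and KO alone stands for Mst1/2-KO. Mst1/2-KO arrays lie below WT arrays in CD8+, CD8- and total DCs, and all CD8+ arrays lie below all CD8- arrays.

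Ctss, the cathepsin that cleaves the invariant chain, lay between 10.93 and 11.05 on the 4 WT CD8+ arrays. On the WT CD8- arrays it was 11.43, 11.49, 11.57 and 11.44. Every CD8+ value was below every CD8- value, and the log2 difference was -0.49 ± 0.06, 1.41-fold (adjusted p = 8.29e-06). In Mst1/2-KO cells it was -0.48 ± 0.06 (adjusted p = 1.30e-05). H2-DMa, the H2-M alpha chain gene, went the other way, from 10.42 to 10.51 in WT CD8- to 10.58 to 10.70 in WT CD8+ arrays, a difference of 0.20 ± 0.06 (adjusted p = 0.025). With the replicate number as a block its adjusted p was 0.0736, so this call was lost. It was also lost when WT CD8+ replicate 2, 3 or 4 or WT CD8- replicate 2 or 3 was left out (adjusted p 0.0592 to 0.0695).

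Rfx5, the DNA-binding subunit of the RFX complex, was 7.96, 7.98, 7.92 and 7.92 in WT CD8+ DCs and 8.18, 8.34, 8.35 and 8.41 in WT CD8- DCs. The groups did not overlap, and the difference was -0.38 ± 0.08 (adjusted p = 0.0026). The probe set that names Rfx5 alone differed by -0.25 ± 0.10, and its groups did not overlap either, but its adjusted p was 0.0913. Ciita ranged from 8.72 to 9.22 in WT CD8+ and from 8.56 to 8.92 in WT CD8- arrays, groups that overlapped, with a difference of 0.25 ± 0.11 (adjusted p = 0.138). The labels give replicate numbers only, and in the WT subsets these were taken to pair the arrays. With the numbers as a block, Ciita had a difference of 0.25 ± 0.07 (adjusted p = 0.0239) and H2-Oa one of -0.23 ± 0.07 (adjusted p = 0.045). Both were called in that fit. Without the block H2-Oa had an adjusted p of 0.0608. Without WT CD8+ replicate 1, the lowest Ciita value of its group, the Ciita difference was 0.37 ± 0.10 (adjusted p = 0.0109).

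**Figure D3:**
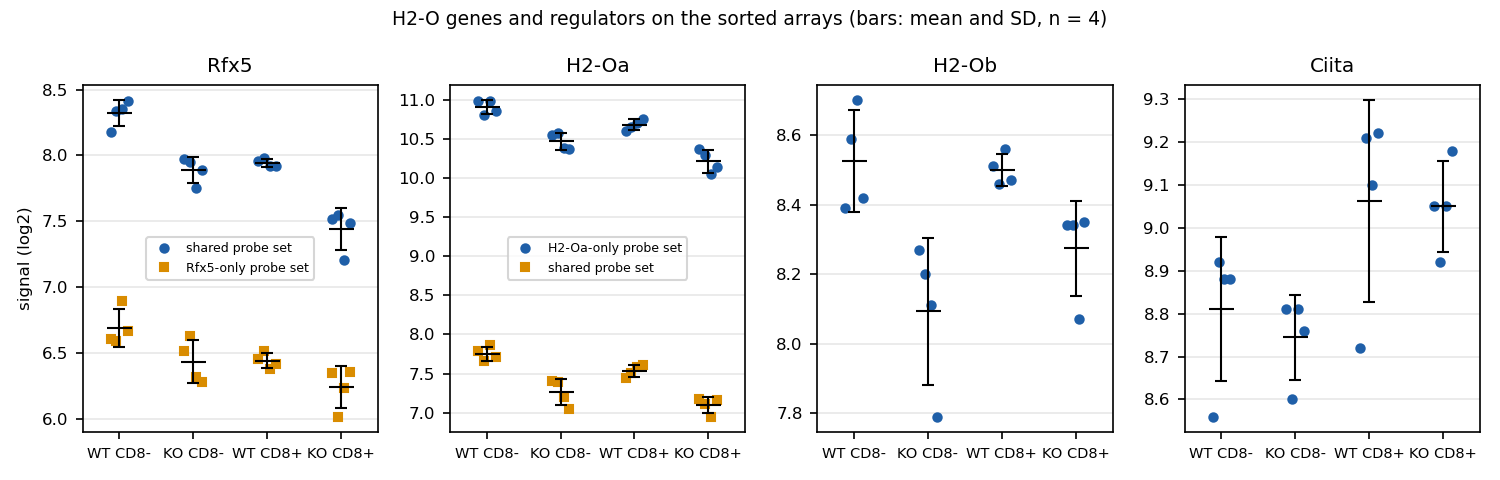
Log2 signal of Rfx5, H2-Oa (2 probe sets each, in 2 colours), H2-Ob and Ciita on each sorted array (points), with the mean and SD of each group of 4 (black); KO stands for Mst1/2-KO and each panel has its own y axis. The Rfx5 probe set shared with B230398E01Rik and both H2-Oa probe sets lie lower in Mst1/2-KO than in WT arrays of each subset, and the Ciita values of the 2 genotypes overlap.

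Many of the other genes of the class II pathway differed between the subsets. Of 17 listed and measured, 2 were higher and 10 lower in WT CD8+ DCs, with a median log2 difference of -0.57 against 0.02 over all probe sets. Lower were the proteases of the endosome, among them Lgmn (-1.31 ± 0.11), Ctsc (-1.25 ± 0.09), Ctsd (-1.17 ± 0.14), Ctsl (-0.86 ± 0.20), Ctsh (-0.78 ± 0.08), Napsa (-0.57 ± 0.11) and Ctsz (-0.49 ± 0.07). Ifi30, the thiol reductase of antigen processing, had -0.81 ± 0.09. Chain genes were lower as well, namely H2-DMb2 (-0.78 ± 0.07), a beta chain of H2-M, and H2-Ea (-1.03 ± 0.24), the E alpha chain gene, which is known to be defective in C57BL/6 mice. H2-DMb1, the other H2-M beta chain gene, was higher (0.27 ± 0.08), as was Marchf1 (0.41 ± 0.08), the ubiquitin ligase that removes class II from the surface. The adjusted p-values of these 12 genes were between 1.68e-08 and 0.0242. Beside them, 6 of 9 measured macrophage and monocyte markers and 6 of 9 B cell markers were lower in WT CD8+ DCs, with 0 and 1 higher. Of 9 measured T cell markers 7 were lower and 0 higher there (median -0.71), and of 7 NK cell markers 6 were lower and 0 higher (median -0.77). The part of such cells in these differences was not tested.

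Among 11 measured class II regulators other than the members, 2 were higher and 4 lower in WT CD8+ DCs. Irf8, a factor of CD8+ DC development, was higher by 2.77 ± 0.23 and Rfxap, an RFX subunit, by 0.61 ± 0.09. Irf4, a factor of CD8- DCs, differed by -3.76 ± 0.21, Prdm1, a repressor of Ciita in plasma cells, by -0.79 ± 0.17, Rfxank, the remaining RFX subunit, by -0.44 ± 0.11, and Spi1, the factor PU.1, by -0.26 ± 0.06. The RFX subunits therefore went both ways, Rfxap higher and Rfxank and the shared Rfx5 probe set lower (adjusted p 5.70e-05, 0.00723 and 0.0026). For contrast, 8 of 14 genes of class I presentation were higher and 0 lower in WT CD8+ DCs, led by the peptide transporter genes Tap2 (1.23 ± 0.09) and Tap1 (1.00 ± 0.08). Whether class I and class II genes differ in this respect was not tested.

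Loss of Mst1/2 in CD8+ DCs came with a lower signal of H2-Eb2, Rfx5 (shared probe set) and H2-Oa, and no other member was called. These 3 of 10 members were called lower and 0 higher, where 0.833% of probe sets were called and 0.632% were called lower. The members' median difference was -0.08 against 0 over all. The values of WT and Mst1/2-KO arrays lay apart for 4 members, these 3 and H2-Ob, as for 6.42% of all probe sets.

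H2-Eb2 fell from the WT CD8+ values given above to 6.23, 5.74, 6.27 and 5.85 in Mst1/2-KO CD8+ DCs. All 4 Mst1/2-KO arrays were more than 1 log2 unit below the lowest WT array. The difference was -1.50 ± 0.18 (SE), with a 95% interval of -1.89 to -1.12, 2.84-fold (adjusted p = 0.000266), and it was the 18th largest fall of the 25335 probe sets. H2-Oa, the alpha chain gene of the H2-M inhibitor, was 10.60, 10.65, 10.71 and 10.76 in WT and 10.37, 10.30, 10.05 and 10.14 in Mst1/2-KO CD8+ DCs. The WT arrays were all higher, and the difference was -0.46 ± 0.08, 1.38-fold (adjusted p = 0.00836). Its probe set shared with BC051537 gave -0.44 ± 0.09 (adjusted p = 0.0212). With only the 8 arrays of this comparison in the fit, the H2-Oa call was lost (adjusted p = 0.0631).

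Rfx5 was 7.52, 7.55, 7.21 and 7.49 in Mst1/2-KO CD8+ DCs, all below the WT range of 7.92 to 7.98. It fell by 0.50 ± 0.08, 1.42-fold (adjusted p = 0.00455). The probe set of Rfx5 alone did not pass the test (-0.20 ± 0.10, adjusted p = 0.488), although its groups did not overlap. H2-Ob, the beta chain gene of H2-O, had a difference of -0.22 ± 0.10 (adjusted p = 0.454). Ciita ranged from 8.92 to 9.18 on the Mst1/2-KO arrays, inside its WT range of 8.72 to 9.22, with a difference of -0.01 ± 0.11 whose 95% interval was -0.25 to 0.22.

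In CD8- DCs lacking Mst1/2 H2-Eb2, Rfx5 (shared probe set) and H2-Oa were again called lower, and H2-Ob as well. Of the 10 members 4 were lower and 0 higher, where 6.34% of probe sets were called and 2.53% were called lower. The members' median difference was -0.10 against 0 over all, and 5 members did not overlap between genotypes, the 4 called and Ctss (-0.10 ± 0.06, adjusted p = 0.46), against 11.9% of all probe sets.

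H2-Eb2 was 8.78, 9.18, 9.0 and 8.08 in Mst1/2-KO CD8- DCs, where the lowest WT array stood at 10.15. The difference was -1.61 ± 0.18, with a 95% interval of -1.99 to -1.22, 3.04-fold (adjusted p = 7.23e-05). The fall was the 13th largest. H2-Oa went from 10.98, 10.81, 10.98 and 10.86 in WT to 10.55, 10.58, 10.39 and 10.37 in Mst1/2-KO arrays (-0.44 ± 0.08, adjusted p = 0.00366). The shared H2-Oa probe set differed by -0.49 ± 0.09 (adjusted p = 0.00241). Both H2-Oa probe sets thus separated the genotypes in both subsets.

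H2-Ob was 8.39, 8.59, 8.70 and 8.42 in WT and 8.27, 8.20, 8.11 and 7.79 in Mst1/2-KO CD8- DCs. The groups lay close without overlapping, and the difference was -0.43 ± 0.10, 1.34-fold (adjusted p = 0.0188). The call did not hold once WT CD8- replicate 2 (adjusted p = 0.0646) or 3 (0.065) was left out. It was lost as well without replicate 4 of the Mst1/2-KO CD8- group (0.0665) and with only the 8 arrays compared in the fit (0.0696). Rfx5 fell by 0.43 ± 0.08 (adjusted p = 0.00372), from the WT values given above to 7.97, 7.95, 7.75 and 7.89. The probe set of Rfx5 alone had -0.26 ± 0.10 (adjusted p = 0.146), with overlapping groups.

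**Figure D4:**
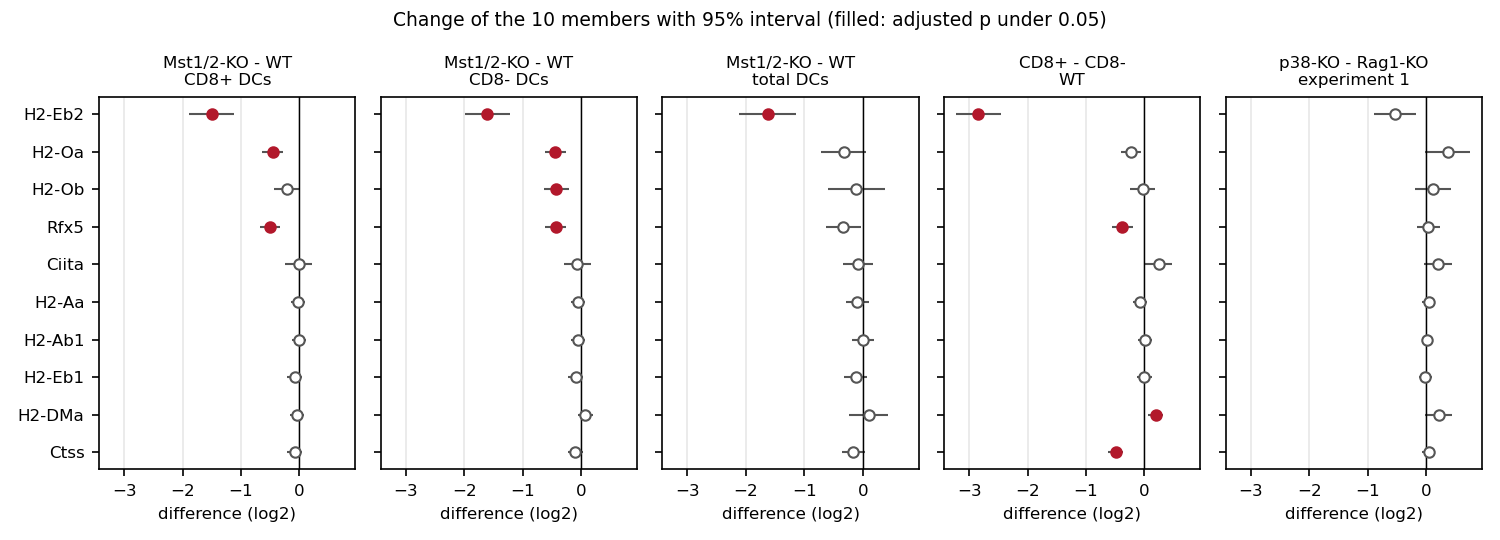
Log2 difference of each member (rows) with its 95% interval (bars) in 5 comparisons on a shared x axis: Mst1/2-KO minus WT in CD8+, CD8- and total DCs, CD8+ minus CD8- in WT, and Rag1-/-/p38-/- minus Rag1-/- in experiment 1; filled points passed the test. H2-Eb2 has the largest negative difference of the members in the 3 Mst1/2-KO panels, between -1.50 and -1.62, and H2-Aa, H2-Ab1 and H2-Eb1 have none that passed.

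A difference between the subsets in the Mst1/2-KO effect was not detected for any member at this number of arrays. For H2-Eb2 the difference of the 2 effects (CD8+ minus CD8-) was 0.10 ± 0.26, with a 95% interval of -0.44 to 0.65 (adjusted p = 0.953). For H2-Oa it was -0.03 ± 0.12 (-0.27 to 0.22) and for H2-Ob 0.20 ± 0.15 (-0.11 to 0.51). No member was called for this difference, where 0.493% of probe sets were; in the limma fit 2270 probe sets had an unadjusted p under 0.05, none of them a member's. The H2-Ob call in 1 subset and not in the other is therefore not a shown difference between subsets.

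Outside the members, few genes of the pathway were called for Mst1/2 in the sorted cells. Of the 17 other class II genes 0 were called in CD8+ and 0 in CD8- DCs, with medians of -0.06 in both, where limma gave 2666 and 4555 probe sets an unadjusted p under 0.05 and none of these genes an adjusted p under 0.05. Among the 11 other regulators 0 were called in CD8+ DCs. In CD8- DCs Irf8 rose by 0.91 ± 0.23 (adjusted p = 0.0255) and Irf1, an interferon response factor, fell by 0.58 ± 0.13 (adjusted p = 0.0141). Of 14 class I genes 0 were called in either subset.

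Markers of other cells and states moved in these comparisons. Of 20 genes of DC maturation, 11 were lower in Mst1/2-KO CD8+ and 13 in Mst1/2-KO CD8- DCs and 0 higher, with Ccr7, the receptor of migrating DCs, at -2.34 ± 0.31 and -1.86 ± 0.31. Of 9 measured B cell markers 4 were lower in Mst1/2-KO CD8- DCs, Cr2 (-1.60 ± 0.20), Blk (-1.52 ± 0.26), Ms4a1 (-1.21 ± 0.18) and Cd22 (-0.47 ± 0.10). The mean of the B cell list lay between 5.53 and 5.64 on Mst1/2-KO CD8- arrays and between 5.92 and 6.18 on the WT ones. In the same cells Blnk (0.54 ± 0.16, adjusted p = 0.0551) and Cd79b (0.25 ± 0.23) had differences above 0, and 0 were called higher. Cd79a (-0.03 ± 0.16), Pax5 (-0.02 ± 0.13) and Fcer2a (-0.01 ± 0.26) were near 0. The list had 7 differences below 0 in these CD8- cells, with a median of -0.03. In CD8+ DCs 0 of the 9 were called and the list means overlapped, at 4.68 to 5.00 against 4.86 to 4.95. Of the 9 differences 6 were below 0, with a median of -0.03. The Ms4a1 groups did not overlap there (-0.68 ± 0.18, adjusted p = 0.0966). Of 10 CD8- DC markers 6 were lower in Mst1/2-KO CD8- DCs, among them Cd4 (-2.03 ± 0.21) and Esam (-1.55 ± 0.14), with list means of 8.44 to 8.87 against 9.39 to 9.54, and 1 was higher, Itgam (0.72 ± 0.14, adjusted p = 0.00528). Of 10 CD8+ DC markers 5 were higher there, among them Irf8 (0.91 ± 0.23) and Xcr1 (0.84 ± 0.14), and 1 was lower, Ly75 (-0.95 ± 0.17). The median of these 10 was 0.68, and their list means overlapped, at 7.62 to 8.08 against 7.16 to 7.74. Of 9 plasmacytoid DC markers 4 were higher there and 0 lower, with means of 7.83 to 8.22 against 6.99 to 7.49. They were Cox6a2 (3.73 ± 0.17), Tcf4 (1.08 ± 0.15), Bst2 (1.06 ± 0.16) and Siglech (0.68 ± 0.19). Of 9 macrophage and monocyte markers 1 was higher there, Ly6c2 (1.94 ± 0.37), and 1 lower, Adgre1 (-1.05 ± 0.15). Their list means overlapped, at 8.27 to 8.56 against 8.06 to 8.42. The part of these shifts in the members' differences was not tested.

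The classical chain genes showed no called difference in any comparison. Over the 16 sorted arrays H2-Aa lay between 11.68 and 11.86, H2-Ab1 between 12.13 and 12.31 and H2-Eb1 between 11.63 and 11.89. The groups overlapped in both genotype comparisons for all 3 genes. In CD8- DCs, where the Mst1/2-KO means were lower, the differences were -0.05 ± 0.06 for H2-Aa, -0.05 ± 0.06 for H2-Ab1 and -0.09 ± 0.06 for H2-Eb1, with 95% intervals that reach no lower than -0.22. Changes of the size seen for H2-Eb2 are outside these intervals. The highest value on any array was 12.73 to 13.19, so these signals were near the top of the scale, and whether the scale is compressed there was not tested.

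**Figure D5:**
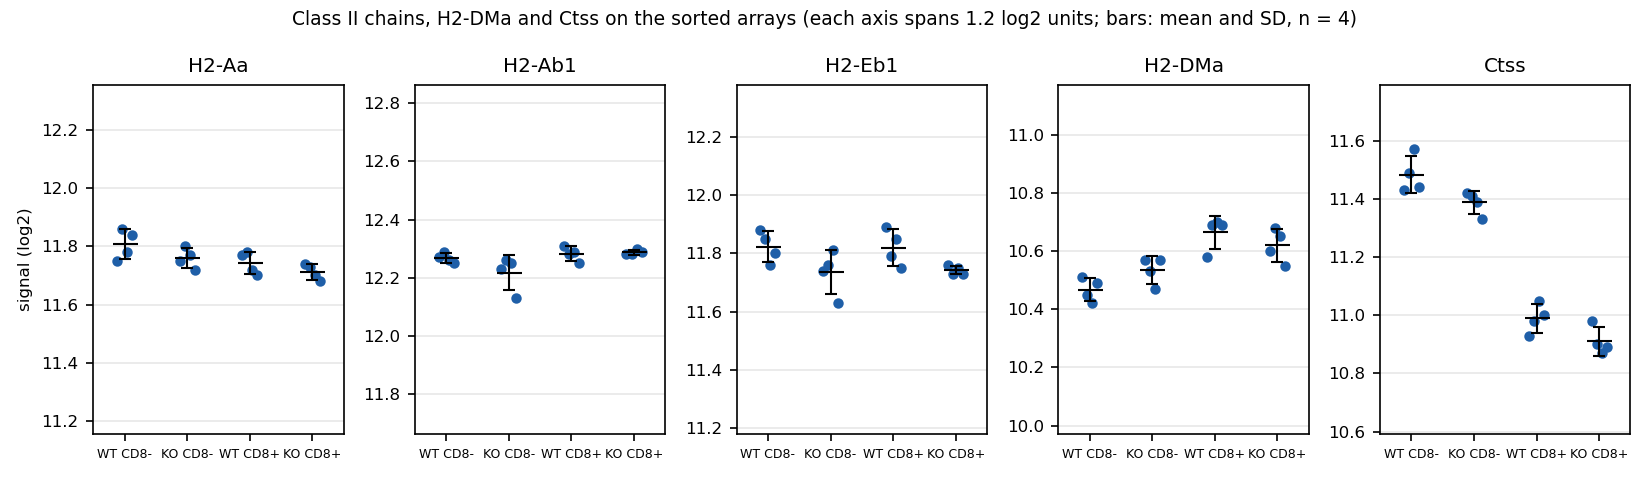
Log2 signal of H2-Aa, H2-Ab1, H2-Eb1, H2-DMa and Ctss on each sorted array (points), with the mean and SD of each group of 4 (black); KO stands for Mst1/2-KO, and every y axis spans the same number of log2 units around the gene's mean. The 3 chain genes overlap between genotypes in both subsets, and Ctss separates CD8+ from CD8- DCs.

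Within the sorted experiment the members fell into different orders of level over the 4 groups. H2-Eb2 had 4 separate steps, from the Mst1/2-KO CD8+ mean of 6.02 ± 0.27 (SD, n = 4) through WT CD8+ (7.52 ± 0.09) and Mst1/2-KO CD8- (8.76 ± 0.48) to WT CD8- (10.37 ± 0.16), with no overlap between neighbours. Rfx5 ran from Mst1/2-KO CD8+ (7.44 ± 0.16) to Mst1/2-KO CD8- (7.89 ± 0.10), WT CD8+ (7.95 ± 0.03) and WT CD8- (8.32 ± 0.10), and its middle groups overlapped. H2-Oa had Mst1/2-KO CD8+ lowest (10.22 ± 0.14), then Mst1/2-KO CD8- (10.47 ± 0.11), WT CD8+ (10.68 ± 0.07) and WT CD8- (10.91 ± 0.08), with no overlap between neighbours, although the highest Mst1/2-KO CD8+ and the lowest Mst1/2-KO CD8- array were both 10.37 after rounding. H2-Ob had WT means of 8.50 ± 0.05 and 8.52 ± 0.15 that overlapped, and Mst1/2-KO means of 8.27 ± 0.13 and 8.10 ± 0.21 in CD8+ and CD8- DCs that overlapped too. Ctss was ordered by subset, and H2-DMa lay in a narrow band, with group means of 10.47 to 10.67.

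In Mst1/2-KO cells the comparison of subsets gave 4 members lower in CD8+ DCs, H2-Eb2, Ctss, Rfx5 (-0.44 ± 0.08, adjusted p = 0.000682) and H2-Oa (-0.26 ± 0.08, adjusted p = 0.0373), where 18.5% of probe sets were called and 8.92% were lower. The H2-Oa call was lost on leaving out CD8+ replicate 3 or 4, or CD8- replicate 1 or 2, of the Mst1/2-KO cells (adjusted p 0.0964 to 0.128), with only these 8 arrays in the fit (0.093) and with unnamed probe sets included (0.0561). Ciita, at 8.92 to 9.18 against 8.60 to 8.81, was higher on every CD8+ array, with a difference of 0.31 ± 0.11 that did not pass the test (adjusted p = 0.069). This comparison shares its arrays with the genotype comparisons above. In it 1 of the 17 other class II genes was higher and 10 were lower in CD8+ DCs, with a median of -0.57. Of the 11 other regulators 2 were higher and 4 lower.

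In total DCs, handled here as a separate experiment although the labels do not say so, H2-Eb2 was the member that fell. Its values were 8.73, 8.87, 9.09 and 9.16 in WT and 7.30, 6.85 and 7.88 in Mst1/2-KO total DCs. The 3 Mst1/2-KO arrays were all lower, with a difference of -1.62 ± 0.22, 3.08-fold (95% interval -2.11 to -1.14, adjusted p = 0.0143), the 17th largest fall. It was the 1 member called of 10, where 0.643% of probe sets were called and 0.407% were lower. Without Mst1/2-KO total replicate 1 or 2 the call was lost (-1.60 ± 0.26 and -1.38 ± 0.19, adjusted p = 0.0803 and 0.0568), and with probe sets lacking a gene name included the adjusted p was 0.0771. Total DCs hold both subsets, and 2 CD8- DC markers were lower there, Cd4 (-2.20 ± 0.30) and Tlr7 (-1.69 ± 0.27), with list means of 6.61 to 7.33 against 7.55 to 8.03. Of 9 measured B cell markers 0 were called, but their median was -0.50 and the list means were 4.84 to 5.38 on Mst1/2-KO and 5.42 to 5.73 on WT arrays. Of 20 genes of DC maturation 7 were lower and 0 higher, with list means of 7.14 to 7.29 against 7.87 to 8.17. Their part in the H2-Eb2 difference was not tested.

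The other members were not called in total DCs. H2-Oa was 10.43, 11.01, 10.93 and 11.08 in WT and 10.44, 10.37 and 10.81 in Mst1/2-KO arrays, which overlapped (-0.32 ± 0.17, adjusted p = 0.492). Its shared probe set did not overlap (-0.41 ± 0.12, adjusted p = 0.169). Rfx5 differed by -0.33 ± 0.13 (adjusted p = 0.349) and H2-Ob by -0.11 ± 0.22 (adjusted p = 0.902). H2-Ea was the 1 other class II gene of 17 that passed (-0.91 ± 0.13, adjusted p = 0.0203).

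In experiment 1 no gene passed the test, and 0% of probe sets were called, although 2146 had an unadjusted p under 0.05 in the limma fit. H2-Eb2 was 8.51, 8.54, 8.30 and 8.22 in Rag1-/- and 7.57, 7.86 and 8.16 in Rag1-/-/p38-/- arrays after anti-CD40. The groups did not overlap, as for 7.5% of all probe sets, and the difference was -0.53 ± 0.15 (95% interval -0.89 to -0.17, adjusted p = 0.495). H2-DMa did not overlap either, at 10.29 to 10.59 against 10.61 to 10.84 (0.22 ± 0.10, adjusted p = 0.60). H2-Oa was 10.54, 10.75, 10.05 and 10.30 in Rag1-/- arrays and 10.67, 10.92 and 10.76 in the double mutants, groups that overlapped (0.37 ± 0.17, adjusted p = 0.601). The members' median was 0.05 against 0 over all. The 8 neutrophil markers had a median of -1.21 here with 0 called, and their list means were 3.95 to 5.27 against 5.80 to 6.81. All 20 genes of DC maturation had differences below 0, with a median of -0.78 and 0 called, and list means of 6.95 to 7.29 against 7.51 to 8.54. The part of either list in these values was not tested.

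Experiment 2 compares lone arrays and has no replicate check of its own on those arrays; its fit takes the spread from the arrays of experiments 1 and 2 and assumes that a lone array varies like the others. Both comparisons use the same 2 Rag1-/- arrays. In the non-stimulated Rag1-/- array H2-Eb2 was 7.55, against 8.07 and 8.65 in Rag1-/- arrays with anti-CD40 and 8.57 in the WT array. The anti-CD40 difference of H2-Eb2 was 0.81 ± 0.28 (adjusted p = 0.273), that of Rfx5 0.53 ± 0.13 (0.164) and that of Ciita 0.45 ± 0.16 (0.291), so no member was called, where 0.0355% of probe sets were. The Ciita values were 8.60 without and 8.99 and 9.10 with anti-CD40, and those of Rfx5 7.41 against 7.92 and 7.95. All 20 genes of DC maturation had differences above 0 here, with a median of 0.68 and 0 called, and list means of 7.89 and 8.27 with anti-CD40 against 7.30 without. The 8 neutrophil markers had a median of 0.48 with 0 called, and list means of 6.58 and 6.87 against 6.08. The part of either list in these differences was not tested.

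Between the WT array and the Rag1-/- arrays after anti-CD40 no member was called, where 0.943% of probe sets were. H2-Ob was 8.79 in WT against 8.16 and 8.13 (0.64 ± 0.19, adjusted p = 0.178) and Rfx5 8.39 against 7.92 and 7.95 (0.46 ± 0.13, adjusted p = 0.156). Of 9 B cell markers 3 were higher in the WT array, Fcer2a (1.62 ± 0.19), Cd79a (1.51 ± 0.23) and Ms4a1 (1.35 ± 0.22), with a list mean of 5.55 against 4.89 and 4.90. The 8 neutrophil markers (list mean 5.19 against 6.58 and 6.87) and the 7 NK cell markers (5.14 against 6.10 and 6.35) had medians of -1.46 and -1.29 with 0 called. The 4 measured erythroid markers all had differences below 0, with a median of -1.25. Cd3e, a T cell marker, differed by 1.21 ± 0.15, where the 9 measured T cell markers had a median of -0.01. Itgae, a CD8+ DC marker, differed by -1.74 ± 0.31, where the 10 of its list had a median of 0.02. The part of these lists in the members' values was not tested. Limma gave 3702 probe sets an unadjusted p under 0.05 in this comparison and 3335 in the anti-CD40 comparison.

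Across the 16 sorted arrays, which share the subset and genotype differences, the genes with the most similar pattern to each of 3 members were listed among 22179 genes by Pearson's r, as a description. For Ciita these were Atxn2l, Plcb2, Il18 and Socs5 (0.93 each) and Rplp1 (0.92). For H2-Oa they were Eif4b, Ccr7 and Gadd45b (0.94 each) and Pnrc1 and Peak1 (0.92 each), so a maturation gene named above is among them. For H2-Eb2, added after its values had been seen, they were Plxnc1 (0.99) and Rogdi, Slc44a1, Dhrs3 and Mical3 (0.98 each).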

How the data were processed

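RNA was amplified and labelled with biotin before the arrays, per the labels' protocols. The values used are the deposited log2 signals of 41155 probe sets on 34 arrays, normalized by the authors with RMA and Partek 6.6 per the submitters' processing notes; the genome build is not given in the sources used here. Digits beyond the 5th decimal are shared by 100.0% of probe sets within each set of arrays handled as an experiment and by 0.017% over all arrays. Values therefore carry an offset per probe set and experiment, and comparisons stay within an experiment. Whether the sorted and total arrays share these digits with each other was not checked.

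Groups came from the labels. Models of group means (lmFit, contrasts.fit, eBayes of limma 3.58.1, R 4.3.3) were fitted on the 25335 probe sets with a gene name, with Benjamini-Hochberg adjustment over all of them and calls at an adjusted p under 0.05. The 16 sorted arrays shared 1 fit, and the comparisons with lone arrays pooled the 11 arrays of experiments 1 and 2. The fit was tested on simulated data. A member or listed gene was represented by its probe set with the highest mean. The text names all members, the deleted genes and called genes of the class II and regulator lists. From each other list it names up to 4 called genes with the largest change. In the comparison of Mst1/2-KO subsets it names members only. For Ciita and H2-Oa it also names the 5 most similar genes. The 15 lists, with the members as one of them, hold 158 entries, and some genes are on several lists. They were chosen with earlier results of these data known. Promoter letters are from RefSeq (GRCm38.p6).

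Replicate numbers were checked by the correlation of same-numbered arrays' deviations from group means. It was 0.12 to 0.34 between the WT subsets, where the numbers were taken as pairs. Elsewhere at least 1 pair was at or below 0.09. Alternatives are given in the closing section.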

Additional observations from a re-analysis of the deposited data

Results flagged for a closer look

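In 5 of 72 member probe sets and groups of 4 arrays, 1 array lay far from the other 3 by Dixon's test at the 95% level, which chance does in about 1 in 20 groups. Ciita was 8.56 on WT CD8- replicate 1, against 8.88 to 8.92 on the others. Rfx5 (17407643) was 7.21 on Mst1/2-KO CD8+ replicate 3, against 7.49 to 7.55, and H2-Ob was 8.07 on the same array, against 8.34 to 8.35. H2-DMa was 10.58 on WT CD8+ replicate 1, against 10.69 to 10.70, and 10.18 on WT total replicate 1, against 10.72 to 10.75. Each of these 5 values was the lowest of its group.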

How the results depend on the processing

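The H2-Eb2 calls in the sorted cells, and the Rfx5 and Ctss calls given in the report, held under every setting and left-out array tried. No difference changed its direction while called. The Rfx5 calls are those of the probe set shared with B230398E01Rik. The probe set of Rfx5 alone was not called between WT subsets or in the genotype comparisons of the sorted cells. In total DCs the count of called members was 0 of 10 when probe sets without a gene name were included, against 1. Leaving out 1 array at a time gave 0 to 1 called members in total DCs, 3 in Mst1/2-KO against WT CD8+ DCs, 3 to 4 in CD8- DCs, 3 to 5 between WT subsets, 3 to 4 between Mst1/2-KO subsets and 0 in the other comparisons. Between WT subsets H2-Oa also passed with probe sets above the median signal, with cyclic loess and with an intensity trend (adjusted p 0.0168 to 0.0361), and H2-DMa was lost with cyclic loess (0.129) and with only the groups compared (0.0698). Ciita passed between Mst1/2-KO subsets under 3 settings besides the block (0.0284 to 0.0436).

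The calls over all probe sets varied more. In total DCs there were 163, against 29 to 290 under other settings (52 with the block) and 29 to 150 with 1 array left out. In CD8+ DCs there were 211, against 113 to 302 and 122 to 226, and in CD8- DCs 1607, against 953 to 1649 with 1 array left out. The difference of effects gave 125, against 63 to 208 and 75 to 262. For the WT against the Rag1-/- arrays of experiment 2 the number was 239, against 9 to 243 and 393 to 674, and for anti-CD40 it was 9, against 0 to 10 and 47 to 401.

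With the replicate block, the called members numbered 3 and 4 in CD8+ and CD8- DCs between genotypes, 5 between WT subsets, 5 between Mst1/2-KO subsets, where Ciita was called (0.31 ± 0.07, adjusted p = 0.00884), 1 in total DCs and 0 in experiment 1. It changed no other member's call than those given here and in the report. Experiment 2 has lone arrays, and no block was fitted there.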
